A study of Mus musculus with 4 samples.

Results

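Accessible regions found in both control libraries and in neither IL-4 library, more than 10 kb from the nearest transcription start site (TSS), were selected from ATAC-seq peak lists of mouse bone marrow-derived macrophages (BMDMs). Of 60710 regions, 34438 lay beyond 10 kb of a TSS and 1635 of these were control-only, which is 4.75% of the regions at that distance. Within 10 kb of a TSS, 995 of 26272 regions were control-only, or 3.79%. A region is the union of the peaks of all libraries that overlap by at least 1 bp, and it takes the distance and the gene of its highest peak. Peak presence in the control and IL-4 libraries chose these regions, so their number and their heights are a description and carry no test.

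The cells came from the bone marrow of wild-type C57BL/6 mice aged 8 to 12 weeks and were differentiated for 6 days with L929 supernatant, which supplies macrophage colony-stimulating factor. Control cells (n = 2 libraries) received nothing further, and the IL-4 group (n = 2 libraries) was given 20 ng/ml of IL-4 during 1 h. All libraries are of the same genotype and had the same growth medium. The methods of the study call the ATAC-seq libraries of a group biological replicates, and the labels do not tie them to animals.

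ATAC-seq uses the Tn5 transposase to insert sequencing adapters into DNA that is not covered by nucleosomes, so a peak marks open chromatin. Far from a TSS, open chromatin mostly marks enhancers, which in macrophages are bound by PU.1 together with C/EBP, AP-1 and RUNX factors. IL-4 activates STAT6, a transcription factor that binds a palindrome with a 4-base spacer and both switches on the genes of alternative activation and represses inflammatory enhancers.

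Peak height is given here as −log10 of the q-value of each peak within its own library. No label states this unit, which was read from the values, and it conflicts in part with the methods, since the lowest height of 1.3 lies below what their cut-off for q would leave on this scale. The 4 libraries held between 39462 and 45250 peaks, with median heights from 6.41 to 8.04. The lowest number and the lowest median both belonged to IL-4 replicate 2, and the highest of both to control replicate 1. Peak number and height grow with sequencing depth, which is unknown, and its part in the control-only set was not tested. Of the peaks of control replicates 1 and 2, 52.9% and 52.5% lay beyond 10 kb, and of those of IL-4 replicates 1 and 2, 51.8% and 53.5%. The mean difference of −0.05 percentage points (control 52.7% ± 0.297, IL-4 52.7% ± 1.22, SD, n = 2 each) gave an exact permutation p of 1, two-sided, where the smallest possible p is 0.333. A peak within 1 kb of the TSS was present in every library for 6 of 9 macrophage marker genes, among them Cd68 and Mertk, whereas Csf1r, Adgre1 and Spi1 had none. None of 5 T cell markers had such a peak, and the other lists held 1 gene each, Ebf1 of 5 B cell markers and S100a8 of 5 neutrophil markers in every library and Pdgfra of 4 fibroblast markers in control replicate 1.

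The sequences under 10 of the control-only regions are shown first, because these regions stood highest in the set or around the genes with most of its members. Each window holds 200 bases of the forward strand around the middle of the highest peak, on the mm10 coordinates of the files and read from the matching GRCm38 assembly of RefSeq. Capitals mark a match to one of the motifs searched below. The regions were ranked by the weaker of both control peaks. The first 6 windows belong to the top region by this rank of Nav2, Rap2a, Asap1, Fam134b, Chn2 and Umps, and the last 4 to the top regions of the whole set.
Nav2, chr7:49397837-49398036: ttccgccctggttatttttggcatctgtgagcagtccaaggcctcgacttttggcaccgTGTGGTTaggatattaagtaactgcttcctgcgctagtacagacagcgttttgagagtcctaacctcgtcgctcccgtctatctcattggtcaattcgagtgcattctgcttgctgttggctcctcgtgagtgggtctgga
Rap2a, chr14:120525785-120525984: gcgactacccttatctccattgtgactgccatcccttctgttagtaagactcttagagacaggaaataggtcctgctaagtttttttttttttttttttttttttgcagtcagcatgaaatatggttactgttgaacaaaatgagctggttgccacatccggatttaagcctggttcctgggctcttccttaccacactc
Asap1, chr15:64519344-64519543: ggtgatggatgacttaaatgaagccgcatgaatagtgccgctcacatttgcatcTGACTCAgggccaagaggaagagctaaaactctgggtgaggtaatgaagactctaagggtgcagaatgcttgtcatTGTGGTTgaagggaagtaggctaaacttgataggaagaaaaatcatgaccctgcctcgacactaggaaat
Fam134b, chr15:25909892-25910091: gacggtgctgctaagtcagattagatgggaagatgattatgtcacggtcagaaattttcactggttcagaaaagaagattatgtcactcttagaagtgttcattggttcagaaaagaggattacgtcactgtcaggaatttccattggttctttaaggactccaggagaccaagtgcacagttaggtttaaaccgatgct
Chn2, chr6:54129699-54129898: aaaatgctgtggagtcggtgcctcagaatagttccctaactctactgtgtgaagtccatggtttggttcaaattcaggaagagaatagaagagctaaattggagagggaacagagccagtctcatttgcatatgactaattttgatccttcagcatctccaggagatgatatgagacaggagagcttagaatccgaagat
Umps, chr16:33985500-33985699: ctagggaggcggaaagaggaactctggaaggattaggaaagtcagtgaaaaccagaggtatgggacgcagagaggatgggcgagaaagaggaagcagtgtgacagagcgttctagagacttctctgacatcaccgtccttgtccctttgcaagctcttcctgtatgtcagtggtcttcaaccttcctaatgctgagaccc
Myo5a, chr9:75124429-75124628: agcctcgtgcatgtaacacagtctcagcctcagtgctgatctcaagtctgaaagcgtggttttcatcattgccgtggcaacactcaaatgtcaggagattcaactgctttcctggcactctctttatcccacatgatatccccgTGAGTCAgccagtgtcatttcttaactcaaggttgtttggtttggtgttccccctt
5430437J10Rik, chr15:5475591-5475790: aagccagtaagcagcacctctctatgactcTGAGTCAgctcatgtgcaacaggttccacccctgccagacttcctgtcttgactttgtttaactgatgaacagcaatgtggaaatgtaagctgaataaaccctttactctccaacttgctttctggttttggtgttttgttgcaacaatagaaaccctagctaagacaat
B930092H01Rik, chr9:61322363-61322562: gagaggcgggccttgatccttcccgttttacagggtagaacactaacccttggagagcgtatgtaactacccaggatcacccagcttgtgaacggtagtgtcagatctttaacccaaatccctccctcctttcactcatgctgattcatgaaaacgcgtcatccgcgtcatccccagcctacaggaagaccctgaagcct
Smim15, chr13:107968099-107968298: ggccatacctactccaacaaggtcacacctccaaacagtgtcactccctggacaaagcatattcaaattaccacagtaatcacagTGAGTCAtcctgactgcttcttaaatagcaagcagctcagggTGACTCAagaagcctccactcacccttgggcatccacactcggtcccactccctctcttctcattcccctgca

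AP-1, the dimer of Jun and Fos family proteins, was searched for as TGAGTCA, whose reverse strand reads TGACTCA. These letters stood in 4 of the 10 windows. The Smim15 window held both forms, at bases 86 to 92 and 128 to 134 of the window, and the Asap1 window held them at bases 55 to 61. RUNX was searched for as TGTGGTT and stood in the Nav2 and Asap1 windows. The windows of Rap2a, Fam134b, Chn2, Umps and B930092H01Rik held none of the motifs searched, which says only that those letters are not in these bases.

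Most of the control-only regions beyond 10 kb were weak peaks. A weak peak can come from few cells with the site open or from a site that is open for a short time in each cell, and in bulk libraries these cannot be told apart. In control replicate 1 their height ran from 1.36 to 18.56 with a median of 5.2, and in control replicate 2 from 1.49 to 15.92 with a median of 4.9. The median member stood at percentile 26.1 and 26.4 of the peaks of its library, so they came mainly from the lower part of each list. The weaker of both control peaks had a median height of 4.02 (interquartile range 3.17 to 4.98) and a maximum of 11.15. It reached 2 in 1607 regions, 3 in 1313, 5 in 406 and 8 in 46. A region was higher in control replicate 1 than in replicate 2 in 937 cases (57.3%). For scale, regions present in all 4 libraries at the same distance (n = 12364) had a median weakest height of 6.43.

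The members were short, with a median length of 179 bp (103 to 534 bp), against 293 bp for the regions present in all libraries. Their distance from the TSS ran from 10028 bp to 1035040 bp with a median of 37592 bp, and 282 of them (17.2%) lay beyond 100 kb. IL-4-only regions beyond 10 kb, which have a peak in both IL-4 libraries and in neither control library (n = 1058), lay farther out, with a median of 47344 bp and 24.8% beyond 100 kb. Regions with a peak in 1 library of each group (n = 3090), whose presence does not follow the treatment, had a median distance of 36575.5 bp and 18.1% beyond 100 kb. The regions present in all libraries had a median distance of 38725 bp. The control-only regions were thus close in distance to both of these classes.

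An absent peak is a statement about a threshold, and the signal below that threshold is not known. The distance to the closest IL-4 peak shows only where a called peak stood. The nearest IL-4 peak lay a median of 6470 bp away. It lay within 500 bp of 259 members (15.8%, 95% Wilson interval 14.2 to 17.7%) and within 100 bp of 61, while 905 members (55.4%) had none within 5 kb and 77 had none within 50 kb. Among the IL-4-only regions, 121 of 1058 (11.4%, 9.66 to 13.5%) had a control peak within 500 bp. A further 3120 regions beyond 10 kb had both control peaks and a peak in 1 IL-4 library, of which 1978 had it in IL-4 replicate 1 and 1142 in IL-4 replicate 2, the library with fewest peaks. Their median IL-4 height was 5.05, close to the heights of the members themselves. When peaks within 500 bp were merged instead, 1411 members were left. The rule applied to 3 libraries gave 4280 members without control replicate 1, 5226 without control replicate 2, 3644 without IL-4 replicate 1 and 2777 without IL-4 replicate 2. With 3 libraries the rule asks for 1 peak or 1 absence fewer and so admits more regions. The rise therefore does not measure the weight of a library. The intervals cover counting error only, since regions of the same 4 libraries are not replicates of a treatment.

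Just inside the distance threshold stood regions of Rufy3 at −10028 bp, 4930567K20Rik at −10039 bp and Gabrr2 at 10061 bp. Just outside it stood control-only regions of Chd2 at 9988 bp, Hes7 at −9970 bp and Gbp2 at 9940 bp. Heights on both sides were alike, from 3.51 to 7.56 inside and from 2.56 to 6.96 outside.

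Introns held 850 of the 1635 members (52.0%, 49.6 to 54.4%) and intergenic DNA 740 (45.3%). The remaining 45 were annotated to a transcription termination site (16), a 3′ UTR (16), an exon (9), a non-coding transcript (3) or a 5′ UTR (1). The intron share was 45.2% (42.2 to 48.2%) in the IL-4-only regions, 48.3% (46.6 to 50.1%) in the regions with 1 library of each group and 47.0% (46.1 to 47.9%) in those of all libraries. A transcript in the annotation could be matched to a symbol for 886 members, and for 555 of these (62.6%) the gene they lay in was also the gene of the nearest TSS. The remainder lay inside one gene and were assigned to the TSS of another, so a gene name below gives a position and not a target. A region present in all libraries stood within 5 kb of 427 members (26.1%, 24.04 to 28.3%), against 19.6% (17.3 to 22.1%) of the IL-4-only regions and 22.3% (20.9 to 23.8%) of those with 1 library of each group. A repeat was named in the detailed annotation of 392 members (23.98%), against 21.97% of the regions with 1 library of each group. By chromosome the control-only share ran from 3.49% of the regions of X to 6.30% of those of chromosome 19, leaving aside Y, which had 1 member among 87 regions.

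The 10 highest members by their weaker control peak had heights between 9.75 and 15.33 in both control libraries. Myo5a, the gene of a myosin motor that carries organelles along actin, held the highest one in intron 4, at chr9:75124210-75124611, with heights of 11.15 and 11.23 in control replicates 1 and 2. An intergenic region at −20627 bp of the TSS of 5430437J10Rik reached 10.85 and 15.21, and one at −28654 bp of B930092H01Rik reached 10.15 and 14.32. The B930092H01Rik region lay 201 bp from an IL-4 peak. A region at −76275 bp of Smim15 had 15.33 and 10.14. Hs3st2, which encodes a heparan sulfate sulfotransferase, had a region in intron 1 with 12.19 and 10.14. Adcy9, an adenylyl cyclase that makes cyclic AMP, had one in intron 1 with 12.02 and 9.8. The others lay near 9130230L23Rik (9.99 and 10.66), in an intron of Enox1 near Gm6994 (13.73 and 9.8), in intron 2 of Rabgap1l, a Rab GTPase-activating protein (9.75 and 10.14), and upstream of Lonrf3 on the X chromosome (9.75 and 14.4). For 9 of these 10 regions no IL-4 peak stood within 500 bp, and the distance to the nearest one ran from 1718 to 22907 bp.

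The members were spread over 1395 genes, 14.5% of the 9613 genes that had any region beyond 10 kb. A single member was found at 1195 genes, 2 at 170, 3 at 23, 4 at 4 and 5 at 3. Thus 30 genes had 3 or more, and they held 100 members (6.12%). The same count gave 21 genes with 3 or more of the 1058 IL-4-only regions and 134 genes with 3 or more of the 3090 regions with 1 library of each group. Genes with 3 or more members had many open regions altogether, a median of 14 beyond 10 kb, against 4 at genes with 1 member and 2 over all genes. At 198 genes a control-only and an IL-4-only region beyond 10 kb occurred together, which is 14.2% of the genes with a control-only region and 21.3% of the 929 genes with an IL-4-only region. Over all 9613 genes, 929 had an IL-4-only region beyond 10 kb, a smaller share than at the genes with a control-only region. No IL-4-only region was found at 17 of the 30 genes, so these lacked one less often than genes at large. Most members stood alone in the genome, with a median of 236233 bp to the nearest other member and 77 of 1635 (4.71%) within 5 kb of one.

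Nav2, which encodes a protein that binds the cytoskeleton in growing neurites, had 5 members among 29 regions beyond 10 kb. All 5 lay in Nav2 introns. The region in intron 4, at chr7:49397736-49398060 and 151748 bp from the TSS, had heights of 10.21 and 6.47, and the region in intron 7 at 182945 bp had 12.83 and 5.75. The other intron 7 region had 3.62 and 7.06, and the intron 2 regions had 5.89 and 3.96, and 4.83 and 5.91. Of the other Nav2 regions, 10 were present in all libraries and 1 was IL-4-only.

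Rap2a, a small GTPase of the Ras family, had 5 members among 17 regions and no IL-4-only region. The highest by its weaker peak was intergenic, 47424 bp from the TSS at chr14:120525823-120525977, with 7.4 and 6.03. Its neighbours were an intron 1 region (4.33 and 6.16) and a region in the 3′ UTR of exon 2 (6.11 and 3.78), and these 3 made a stretch of 29.0 kb. A member in intron 5 of Mbnl2, a splicing regulator, was the weakest with 1.86 and 3.78, and the last, 133031 bp from the TSS, had 8.34 and 4.95.

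Asap1, a GTPase-activating protein for ARF GTPases that acts on the actin cytoskeleton, had 5 members among 31 regions and 3 IL-4-only regions. The 3 intronic members had heights of 3.74 and 3.82, 6.95 and 3.76, and 3.57 and 4.38 in control replicates 1 and 2. The highest by the weaker control peak was intergenic, at chr15:64519344-64519543 in the window shown, with 4.38 and 6.18. The farthest, at −239138 bp, had 1.55 and 2.66 and lay 542 bp from an IL-4 peak. The IL-4-only regions of Asap1 had heights from 2.9 to 10.92 in the IL-4 libraries.

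Fam134b, also named Retreg1, encodes a receptor for the turnover of endoplasmic reticulum. It had 4 members among 18 regions. An intron 3 region at chr15:25909865-25910120 had 8.27 and 5.98 and lay 149 bp from an IL-4 peak. The other members had heights from 2.72 to 4.65, and a pair of them lay in introns 35 and 36 of Myo10, a myosin of filopodia, fewer than 500 bp apart. Chn2, a GTPase-activating protein for Rac, had 4 members among 17 regions, with heights of 6.96 and 4.95, 4 and 3.46, 5.12 and 5.4, and 6.96 and 4.58. The IL-4 peak nearest to a Chn2 member lay 9819 bp away, and Chn2 had no IL-4-only region. The 4 members assigned to Umps, the enzyme of the last steps of UMP synthesis, lay in introns 7 and 10 of Itgb5 (integrin beta 5), at the end of Umps and in intron 56 of Kalrn, a guanine nucleotide exchange factor. Their heights were 3.74 and 2.66, 6.88 and 4.58, 4.49 and 3.64, and 8.34 and 4.95.

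**Figure D1:**
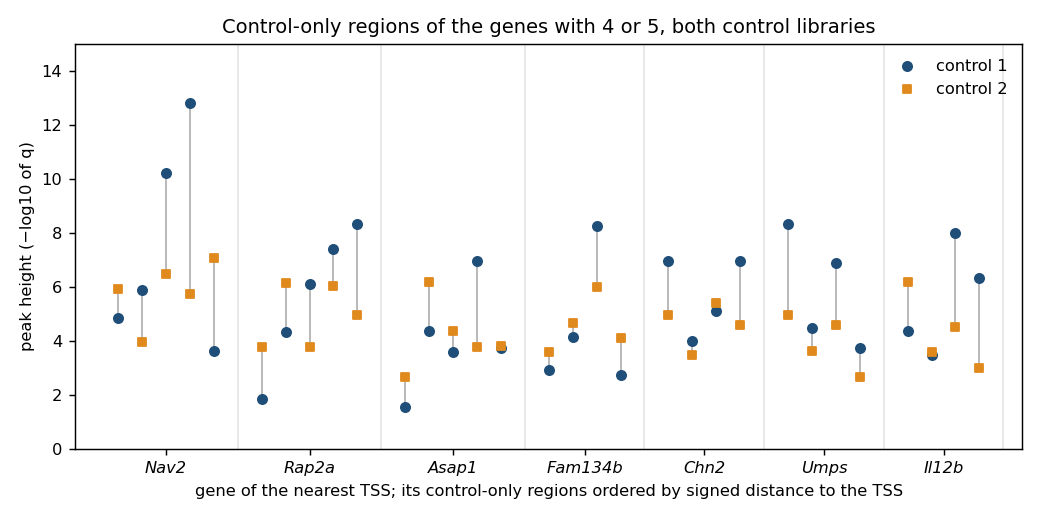
Peak height (−log10 of q) of each control-only region of the 7 genes with 4 or 5 of them, in control replicate 1 (circles) and control replicate 2 (squares), ordered within a gene by distance to the TSS. A grey line joins both heights of a region, and the highest value is 12.83 in Nav2.

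Il12b, which encodes the p40 subunit shared by IL-12 and IL-23, had the highest share among these 7 genes, 4 members among 8 regions beyond 10 kb. One lay upstream at −76492 bp, at chr11:44323493-44323650, with heights of 4.38 and 6.18. The other 3 lay downstream of the TSS within 7.08 kb, the shortest stretch of 3 members of one gene in the set. The first of them, at 10624 bp, was annotated to intron 5 and had 3.48 and 3.6. The second, at 15061 bp, had 7.98 and 4.5, and the third, at 17528 bp, had 6.33 and 2.98. The second lay 35 bp from an IL-4 peak, that of a region present in all libraries, and the others lay 2497 to 7934 bp from one. An IL-4-only region with heights of 4.11 and 7.86 in the IL-4 libraries stood about 8.15 kb from the start of the upstream member. The 4 windows are given because of this share and the short stretch, a choice made after their values were seen.
Il12b, chr11:44323471-44323670: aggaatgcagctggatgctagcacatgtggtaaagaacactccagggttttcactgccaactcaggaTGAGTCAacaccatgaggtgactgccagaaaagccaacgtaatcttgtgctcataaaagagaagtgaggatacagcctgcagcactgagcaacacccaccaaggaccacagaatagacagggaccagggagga
Il12b, chr11:44410587-44410786: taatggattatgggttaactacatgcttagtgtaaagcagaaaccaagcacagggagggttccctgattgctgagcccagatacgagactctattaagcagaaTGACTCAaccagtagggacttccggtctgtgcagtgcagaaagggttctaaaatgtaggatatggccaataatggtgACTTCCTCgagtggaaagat
Il12b, chr11:44415024-44415223: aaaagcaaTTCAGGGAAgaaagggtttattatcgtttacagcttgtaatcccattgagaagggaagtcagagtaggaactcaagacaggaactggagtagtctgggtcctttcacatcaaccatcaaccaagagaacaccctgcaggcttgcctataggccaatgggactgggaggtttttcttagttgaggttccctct
Il12b, chr11:44417491-44417690: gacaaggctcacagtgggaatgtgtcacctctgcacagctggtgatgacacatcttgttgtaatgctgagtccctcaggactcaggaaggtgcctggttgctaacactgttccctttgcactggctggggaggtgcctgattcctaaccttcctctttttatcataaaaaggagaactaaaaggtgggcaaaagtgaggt

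The first and second windows held the AP-1 letters, at bases 68 to 74 and 104 to 110. The second also held the PU.1 letters, searched for as GAGGAAGT and here on the reverse strand, at bases 181 to 188. The third held TTC and GAA with 3 bases between them, which was searched for separately from the STAT6 spacing, and the fourth held no match. None of the 4 held the STAT6 spacing.

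**Figure D2:**
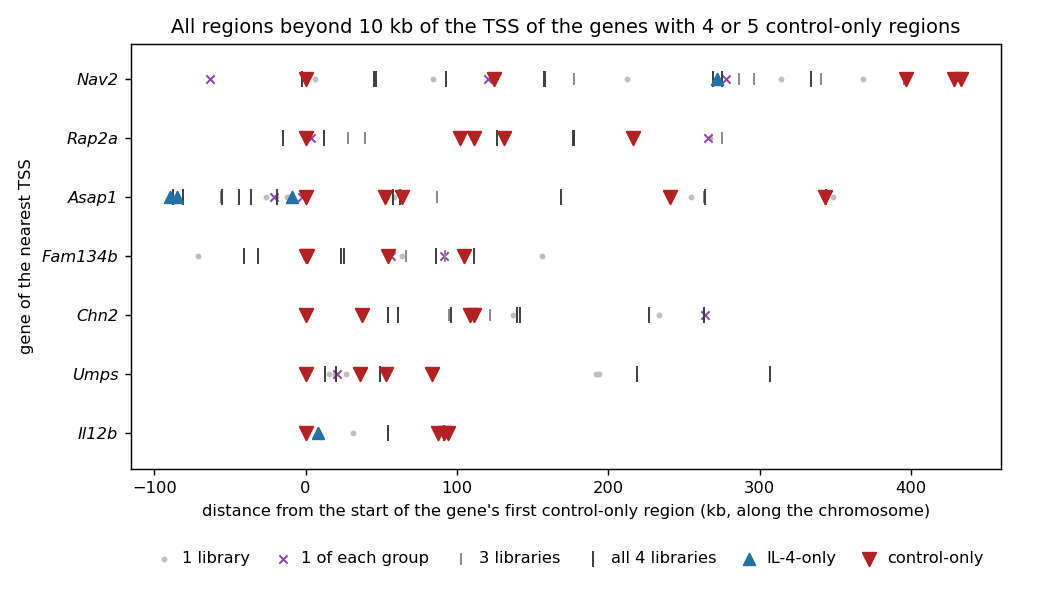
All regions beyond 10 kb of the TSS of the 7 genes with 4 or 5 control-only regions, drawn by class against the distance in kb from the start of the first control-only region. Control-only regions (red) cover spans from 83.6 kb (Umps) to 433 kb (Nav2). They stand among the regions of all 4 libraries (black bars) and at some genes, such as Il12b and Nav2, also outside them. IL-4-only regions (blue) occur at Nav2, Asap1 and Il12b.

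Med13l, a subunit of the Mediator kinase module, had the only stretch of 3 members with gaps of at most 25 kb besides those of Rap2a and Il12b, 8.26 kb long in its intron 2, with heights of 4.42 and 4.67, 5.5 and 6.78, and 7.55 and 4.9. Other genes with 3 members were known from immune cells. Runx3, a Runt-family transcription factor, had 3 among 10 regions, of which a region at −66808 bp had 7.39 and 6.43. Pik3ap1, an adaptor that links receptors to PI3 kinase, had 3 among 12, the highest with 6.1 and 9.85. Ifng, the gene of interferon gamma, had 3 among 13, all intergenic, with 4.38 and 3.76, 6.96 and 3.78, and 3.17 and 7.24, and the first lay 11 bp from an IL-4 peak. Klf4, a zinc finger transcription factor of macrophages, had 3 among 36 regions, all upstream between −112609 and −282532 bp, with heights from 3.78 to 7.28. Kcnk13, a potassium channel of microglia and macrophages, had the member with the highest weaker peak of the 30 genes, in its intron 2, with 13.74 and 9.45.

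Among the 100 members of these 30 genes, 63 lay in introns and 35 in intergenic DNA. Of the 62 intronic ones with a matched host gene, 27 lay in a gene other than that of the nearest TSS. Examples were introns 7, 11 and 20 of Rptor, the raptor subunit of an mTOR complex, which were assigned to A430071A18Rik, and intron 2 of Gramd1b, a cholesterol transfer protein, assigned to 1700110K17Rik. An IL-4 peak within 500 bp stood beside 17 of the 100. Zmym2 had the highest share of all 30 genes, 3 members among 4 regions, and a pair of these were separated by 54 bp. When peaks within 500 bp were merged, 17 genes with 3 or more members were left, and 25 when peaks within 100 bp were merged. With 3 libraries the number was 235 without control replicate 1, 356 without control replicate 2, 214 without IL-4 replicate 1 and 103 without IL-4 replicate 2. These counts rise with the members that the looser rule admits.

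Sequence was not used to choose the regions, so it can be compared between classes. In 200 bp around the middle of the highest peak, the AP-1 letters were found in 431 of 1635 control-only regions (26.4%, 24.3 to 28.6%). The share was 18.3% (17.0 to 19.7%) in the regions with 1 library of each group, 17.7% (15.5 to 20.1%) in the IL-4-only regions, 28.0% (27.2 to 28.8%) in the regions of all libraries and 22.1% in all regions beyond 10 kb. The control-only share was above those of the first 2 classes, with intervals that did not overlap, and its interval overlapped that of the regions of all libraries. Among control-only regions within 10 kb of a TSS the share was 16.9% (14.7 to 19.3%), below that of the distal ones.

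The AP-1 share also differed by which libraries held a peak. It was 25.7% (24.2 to 27.2%) in regions with both control peaks and 1 IL-4 peak and 19.4% (17.6 to 21.3%) in those with both IL-4 peaks and 1 control peak. Regions found in 1 control library alone had it in 18.2% (17.2 to 19.2%) and those found in 1 IL-4 library alone in 13.2% (12.3 to 14.1%). When the control-only regions were split into 3 groups of like size by the weaker peak, the share was 25.8% in the lowest group, 25% in the middle group and 28.3% in the highest. Regions with 1 library of each group and heights in the same ranges had 17.8%, 19.8% and 17.0%. The share was 25.6% in introns and 27.2% in intergenic DNA, and 25.5% within 50 kb and 27.8% beyond it.

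The AP-1 letters were concentrated at the middle of the peak. Per 1000 control-only regions, 211 matches lay within 50 bp of the middle and 18.96 lay 200 to 250 bp away, a ratio of 11.1. The ratio was 10.2 in the regions with 1 library of each group, 10.7 in those of all libraries and 5.64 in the IL-4-only regions. A comparison of all 8187 words of 7 bases, counted with their reverse strands and chosen by no list, gave the same letters. TGACTCA had the largest difference between the control-only regions and those with 1 library of each group, 8.04 percentage points, and the next 3 words overlap it and differed by 3.69 to 3.76 points. The first of these was CTGACTC. Words that were rarer in the control-only regions differed less, the largest being AGGAACT with 8.81% against 11.5%.

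**Figure D3:**
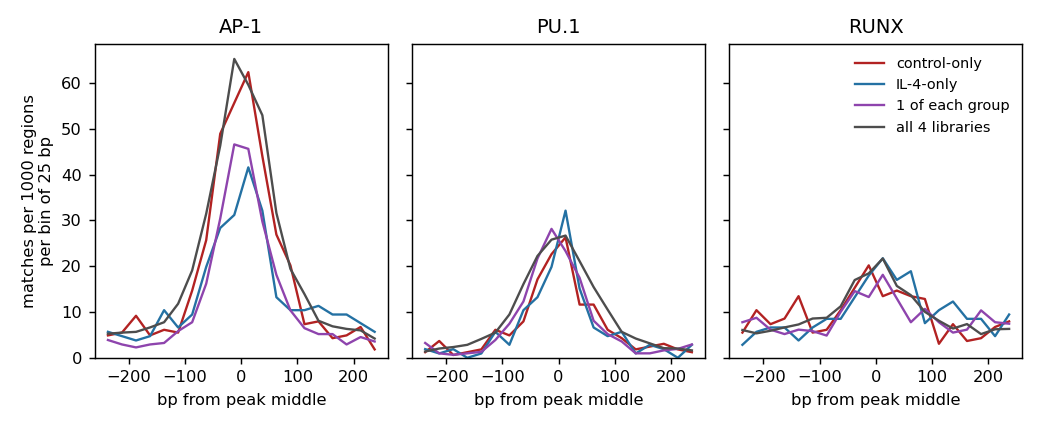
Matches to AP-1, PU.1 and RUNX letters per 1000 regions in bins of 25 bp against the distance in bp from the middle of the highest peak, for 4 classes of regions beyond 10 kb. AP-1 matches of the control-only regions (red) peak at the middle near those of the regions of all libraries (grey), with 211 and 224 per 1000 within 50 bp, above the regions with 1 library of each group (purple, 152) and the IL-4-only regions (blue, 133).

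The STAT6 spacing, TTC and GAA with 4 bases between them on either strand, was found in 37 control-only regions (2.26%, 1.65 to 3.10%). It was found in 32.1% (29.4 to 35.0%) of the IL-4-only regions, in 4.56% (3.88 to 5.36%) of the regions with 1 library of each group and in 6.88% (6.45 to 7.34%) of those of all libraries. The control-only share was thus the lowest of these classes, and the intervals did not overlap. It was not particular to distal regions, since control-only regions within 10 kb of a TSS had 2.31% (1.55 to 3.44%). Regions with both control peaks and 1 IL-4 peak had 2.85% (2.32 to 3.50%), and regions found in 1 control library alone had 3.38% (2.96 to 3.87%). The 3-base spacing, which spells TTCNNNGAA, had 4.22% (3.35 to 5.31%) in the control-only regions, 13.8% in the IL-4-only regions, 6.18% (5.39 to 7.09%) with 1 library of each group and 6.69% in all libraries. With a window of 300 bp in place of 200 bp the STAT6 spacing rose to 4.89% of the control-only regions, and with 100 bp it fell to 0.917%.

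Letters of other factors were searched for in the same windows. C/EBP, searched for as TTGCNNAA, stood in 14.7% (13.0 to 16.5%) of the control-only regions and in 11.6% (10.5 to 12.8%) of those with 1 library of each group. In the regions of all libraries it stood in 13.4% (12.8 to 14.0%). PU.1 stood in 10.5% (9.07 to 12.0%), against 11.3% with 1 library of each group and 13.6% (13.0 to 14.2%) in all libraries. RUNX stood in 9.60% (8.27 to 11.1%), against 8.71% and 10.8%. At least 1 of AP-1, PU.1, C/EBP and RUNX stood in 820 control-only regions (50.2%, 47.7 to 52.6%), against 42.9% (41.1 to 44.6%) with 1 library of each group. CTCF, searched for by the core CCANNAGGNGGC, stood in 3.00% (2.27 to 3.94%) of the control-only regions, against 4.08% (3.44 to 4.83%) with 1 library of each group and 1.24% (1.06 to 1.45%) in all libraries. KLF, searched for as GGGTGTGG, had 3.43% (2.65 to 4.42%), against 2.39% and 2.64%, and the MITF and TFE letters TCACGTG had 2.20%, against 1.55% and 2.20%. NF-kB letters (GGGANNTTCC) stood in 12 regions (0.734%), CRE letters (TGACGTCA) in 12 and EGR letters (GCGTGGGNG) in 4. The IRF letters GAAANNGAAA had 2.69% (2.01 to 3.59%), against 3.82% with 1 library of each group and 3.88% (3.56 to 4.24%) in all libraries. The PU.1-IRF composite GGAANNGAAA, whose letters overlap those of IRF where GGAA is followed by a GAAA repeat, had 4.40% (3.51 to 5.51%), against 4.79% and 6.15% (5.74 to 6.58%). Base composition was close, with a median GC of 48% in the control-only regions and 48.5% with 1 library of each group and in all libraries.

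**Figure D4:**
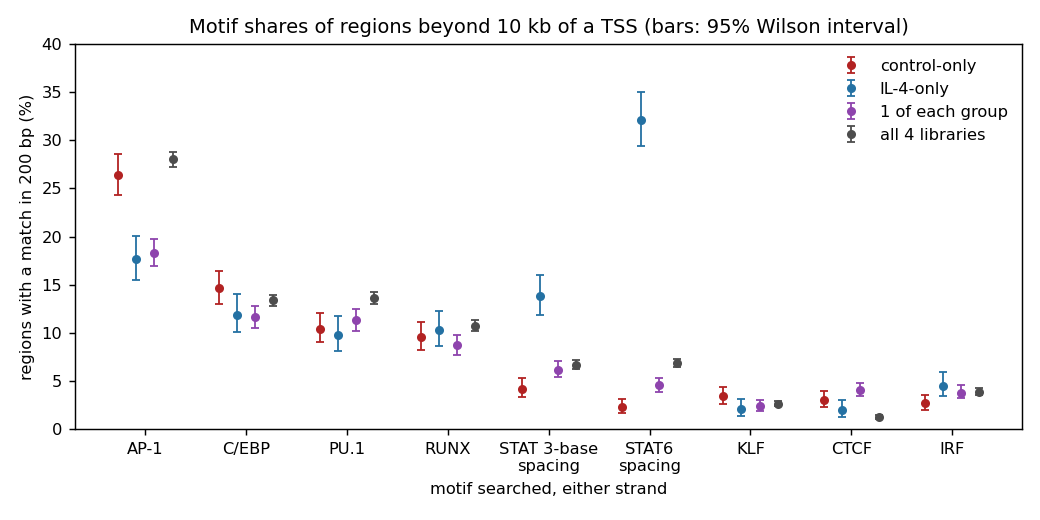
Share of regions beyond 10 kb with a match in 200 bp (%), for 9 motifs and 4 classes, with 95% Wilson intervals. The control-only regions (red) stand beside the regions of all 4 libraries for AP-1 (26.4% and 28.0%) and lowest of the 4 classes for the STAT6 spacing (2.26%).

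The members around the 30 genes had a lower AP-1 share, 18 of 100 (18%, 11.7 to 26.7%), than the set as a whole, with an interval that held the share of the set. PU.1 letters stood in 13 of the 100, C/EBP letters in 12, RUNX letters in 7 and the STAT6 spacing in 2. The AP-1 letters stood in 2 of 4 members of Il12b, 2 of 5 of Asap1, and 2 of 3 each of Zmym2 and A230009B12Rik. At Pik3ap1 the member at chr19:41455123-41455245 held 2 matches and the other members held none. None of the members of Nav2, Rap2a, Chn2, Fam134b or Umps held the AP-1 letters.

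Lists of macrophage genes were read against 2 backgrounds, 14.5% of genes with at least 1 member and 4.75% of regions. Since genes with more open regions had more members, the share of regions is the closer of these. The shares of the lists are descriptions that were not tested against it, and many rest on few regions. Feedback regulators of signalling, the SOCS, DUSP and phosphatase genes, had a member at 9 of 21 genes, 13 of 143 regions (9.09%). Dusp10 and Dusp7, phosphatases that act on MAP kinases, had regions with 6.22 and 4.96 and with 6.28 and 4.95, and Ptpn1, a tyrosine phosphatase, had one with 6.74 and 4.95. Fc, lectin, Siglec and TREM receptors had one at 4 of 16 genes, 5 of 40 regions (12.5%), among them the inhibitory receptors Sirpa (5.31 and 5) and Pilra (5.46 and 4.64) and the Fc receptor Fcgr4 (2.88 and 3.74). Cytokines and chemokines had 5 of 48 regions (10.4%), but 4 of these 5 were those of Il12b, and the other lay 31800 bp from Ifnb1, the gene of interferon beta, with 5.65 and 4.95.

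Integrins had 6 of 92 regions (6.52%) at 4 of 13 genes, with Itga6 at 8.3 and 7.46, Itga5 at 6.93 and 6.24 and Itgb1 at 4.36 and 5.66. AP-1 family genes had 7 of 109 regions (6.42%) at 4 of 10 genes. Fosl2, a Fos-related subunit, was assigned a region at −200295 bp in intron 9 of Babam2 with 12.68 and 7.46, and Jun one at −164027 bp with 3.99 and 6.42. Bach1, a repressor of haem-responsive genes, had one in intron 2 with 4.61 and 5.27.

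Some other lists were at or below the background of regions. Macrophage lineage factors had 8 of 284 regions (2.82%) at 4 of 17 genes, namely Etv6 (7.92 and 6.08), Runx1 (8.39 and 5.9), Klf4 and Klf6. Genes of alternative activation had 2 of 87 (2.30%), at Ptgs1, the cyclooxygenase of basal prostaglandin synthesis (4 and 5.96), and Pdcd1lg2, the PD-1 ligand that IL-4 raises in macrophages (4.28 and 3.78). Toll-like receptor pathway genes had 5 of 107 (4.67%) at 5 of 15 genes, led by Ly86 (10.38 and 5.91), Tlr4 (3.43 and 5.75) and Tlr2 (4.38 and 2.56). Cytokine and chemokine receptors had 4 of 121 (3.31%), at Csf1r in its intron 15 (6.35 and 11.2), Ccr1 (8.53 and 5.33), Cxcr4 (4.38 and 6.43) and Fpr1. NF-kB subunits and inhibitors had 2 of 59 (3.39%), at Nfkbiz (5.91 and 4.48) and Nfkb1 (5.65 and 3.78). Inflammasome and IL-1 family genes had 1 of 25 (4%), at Gsdmd, the pore-forming gasdermin of pyroptosis (3.17 and 7.46), and TGF-beta and SMAD genes had 1 of 80 (1.25%), at Smad7 (6.09 and 1.49).

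Cholesterol and lipid genes had 4 of 62 regions (6.45%), at Npc2 (5.58 and 4.93), Rxra (3.43 and 3.21) and Lpcat3 (3.17 and 2.66). Matrix metalloproteinases and lysosomal proteases had 3 of 43 (6.98%), at Mmp19 (6.95 and 2.89), Ctsh (6.54 and 3.41) and Ctsb (3.44 and 7.53). Counts this small do not set either list apart from the background of regions. Scavenger and efferocytosis receptors had 1 of 33 (3.03%), at Stab1 (6.57 and 5.02). A list of 10 genes that the study named as IL-4-repressed had 1 member among 46 regions (2.17%), that of Tlr2, and a list of 3 that it named as IL-4-activated had 3 among 46 (6.52%), all of Klf4. The study chose both lists on cells of the same kind, so they are not independent evidence.

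The heights of other open regions at the 30 genes were measured in every library and did not choose the members, although the comparison is the same one. Over 25442 regions present in all 4 libraries, limma on quantile-normalised log2 heights called 4 higher and 2 lower after IL-4 at an adjusted p of 0.05, so that 0.00786% were called lower. Without IL-4 replicate 1 or IL-4 replicate 2 none was called, and without control replicate 1 or 2 the counts were 6 and 12, all higher after IL-4. Each of these fits has a group of 1 library, which is assumed to vary like the other group, so its counts are not directly comparable. None of the 6 was assigned to one of the 30 genes, which had 206 such regions at 29 genes. Of these 206, 115 (55.8%) had a log2 change below 0, with a median of −0.07, against 50.1% and a median of −0.00 over all regions. At an unadjusted p under 0.05, 15 of the 206 were lower (7.28%), against 4.15% of all, and 11 were higher (5.34%), against 4.12% of all. Genes with no member had 49.7% of their regions below 0, genes with 1 member 50.9% and genes with 2 members 54.8%. The median of the 206 was −0.02 without control replicate 1, −0.15 without control replicate 2, −0.04 without IL-4 replicate 1 and −0.06 without IL-4 replicate 2. Its difference from the median of all regions was −0.00195, −0.139, −0.0565 and −0.0678 in the same order. Without control replicate 1 the 206 regions thus stood at the level of all regions.

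At single genes the shared regions moved both ways. Near Umps, in an intron at −154024 bp, heights were 12.92 and 10.27 in control cells and 4.11 and 4.37 after IL-4, a log2 change of −1.22 ± 0.517 (SE, limma adjusted p = 0.531). Both control libraries were above both IL-4 libraries there, as they were near Rap2a with 21.98 and 19.31 against 12.85 and 8.87 (log2 change −0.73 ± 0.347, limma adjusted p = 0.578) and in an Asap1 intron with 8.3 and 11.18 against 3.68 and 4.46 (−1.02 ± 0.536, limma adjusted p = 0.630). The lowest p at Nav2 belonged to an intronic region with 21.72 and 14.48 against 6.6 and 12.53 (−0.77 ± 0.406, limma adjusted p = 0.630). At Fam134b and Chn2 it belonged to regions that were higher after IL-4. One of the regions annotated to a Fam134b promoter, at −387 bp of a TSS, had 5.39 and 4.65 in control cells and 15.53 and 9.14 after IL-4 (log2 change 1.49 ± 0.501, limma adjusted p = 0.361), and a Chn2 intron region had 7.76 and 8.55 against 17.46 and 13.89 (1.18 ± 0.419, limma adjusted p = 0.389). The groups did not overlap at either region, yet no adjusted p passed the threshold. The other promoter region of Fam134b, at −186 bp of a TSS, had 27.71 and 33.36 in control cells and 23.22 and 19.88 after IL-4 (−0.35 ± 0.246, limma adjusted p = 0.760), so that both control libraries stood above both IL-4 libraries there. The 3 shared regions of Il12b overlapped between groups, and the one beside its second downstream member had 4.96 and 6.57 against 7.36 and 5.72 (0.43 ± 0.534, limma adjusted p = 0.887).

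All shared regions of Runx3 and Pik3ap1, 3 at each gene, had log2 changes below 0, from −0.56 to −0.16 and from −0.64 to −0.52. Those of Klf4 ran from −0.55 to 1.59 over 19 regions, and those of Xylt1, the enzyme that starts glycosaminoglycan chains, had 1 of 7 below 0. The Klf4 region with the change of 1.59 ± 0.374, intergenic at −279350 bp, had heights of 7.1 and 10.21 in control cells and 24.43 and 20.54 after IL-4 (limma adjusted p = 0.146). Its log2 change was 1.95 without control replicate 2. With all 4 libraries and the replicate number as a block, this Klf4 region passed the threshold (limma adjusted p = 0.0478). With all 4 libraries and no block, no shared region at the 30 genes did.

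**Figure D5:**
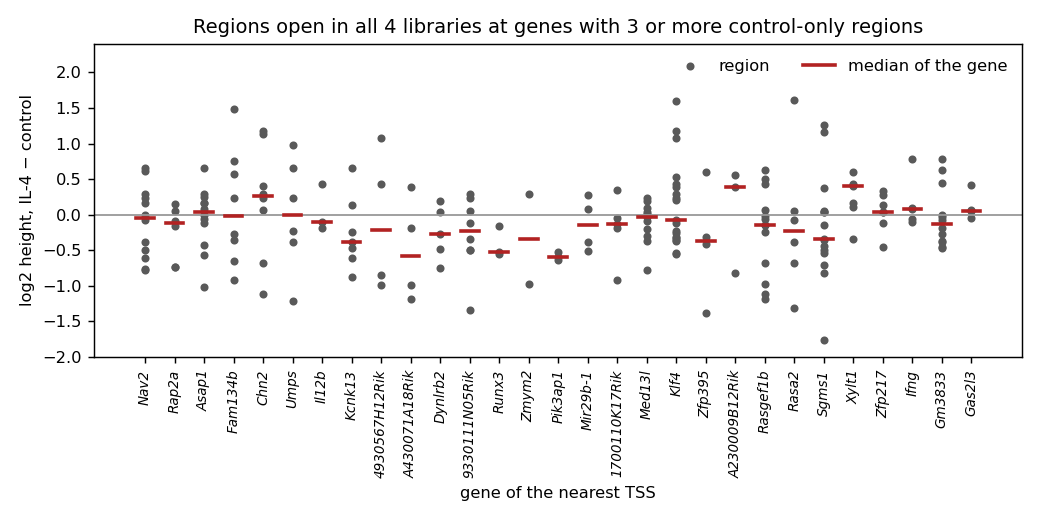
Log2 change in height (IL-4 minus control, quantile-normalised) of each region present in all 4 libraries (points) at the 29 genes with 3 or more control-only regions and at least 1 such region, with the median of each gene (red bars). Of the 206 points 115 lie below 0. None passed the limma threshold in this fit of all 4 libraries, whereas 1 region of Klf4 did with the replicate number as a block.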

How the data were processed

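ATAC-seq peak lists of 4 libraries were analysed, 2 of control and 2 of IL-4-treated BMDMs, grouped by the labels. According to the study's methods and processing notes, the authors aligned reads to mm10 with BWA 0.7.10, handled them with SAMtools 0.1.19, called peaks in each library with MACS2 2.0.10 and annotated them with HOMER 4.2. The deposited peak score was read from its values as the −log10 q-value of MACS2, a unit that no label states and that the methods' cut-off for q leaves in doubt. The files give no reads, so depth is unknown and DiffBind, used by the authors on reads, was not run. A height of 2 was not reached by the weaker control peak of 28 members. The deposited distance to the TSS is in bp.

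Peaks of chromosomes 1 to 19, X and Y that overlapped were merged with Python 3.11.15 (pandas 2.3.3, numpy 2.4.6). Shares have Wilson intervals (scipy 1.17.1). The fit of shared regions used lmFit and eBayes with a trend (limma 3.58.1, R 4.3.3) and Benjamini-Hochberg adjustment, after a check on simulated data. In the reference annotation 79.9% of 1561 members had the same TSS distance within 2 bp. The members, gene lists and tests were chosen with earlier results of these data known. Genes named were those with 4 or more members, the 10 highest members, the 3 highest genes of each list, the shortest stretches of 3 members and the members next to the distance threshold; others with 3 members were picked for their known function. A macrophage marker and a gene list are not reported here. Sequences came from RefSeq. Alternatives covered peak height, merging, distance, window, scaling, the replicate block and leaving out each library.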

Additional observations from a re-analysis of the deposited data

How the results depend on the processing

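The number of members was within 1.5 times its value under the other height, merging and distance settings (1237 to 1941), and applying the rule to 3 libraries gave 2777 to 5226. The rule for 3 libraries has a condition fewer, so a larger set follows from it. The 30 genes with 3 or more members became 17 with merging within 500 bp, 17 beyond 20 kb and 103 to 356 without 1 library. The AP-1 share was 19.1% in 100 bp and ran from 20.0% to 26.8% without 1 library, where leaving out a control library gave the lower values. The STAT6 spacing share was 0.917% in 100 bp and 4.89% in 300 bp, and 2.26% became 2.48% to 3.20% without 1 library. The whole region gave 431 AP-1 and 37 STAT6 matches again, of which 415 and 27 were in the same members. The intron share ran from 48.7% to 49.9% without 1 library. The share with an IL-4 peak within 500 bp was 13.6% for heights of at least 3, 11.7% with merging within 100 bp, 0% by construction within 500 bp, and 12.6% to 17.8% without 1 library.

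The limma count of 6 (4 higher, 2 lower) became 3 without scaling, all lower, 0 without a variance trend, 0 to 12 without 1 library, all higher, and 14 with the replicate block (11 higher, 3 lower). The block also called the Klf4 region at −279350 bp (limma adjusted p = 0.0478, against 0.146 without it). The labels share only replicate numbers, and the correlation of the deviations of same-numbered libraries was 0.01. The median of the 206 shared regions was −0.30 without scaling, where all regions fell by 0.21 on the log2 scale, and −0.146 to −0.0152 without 1 library. Its difference from all regions ran from −0.139 to −0.00195 without 1 library. The difference in the share of peaks beyond 10 kb was −0.05 percentage points with the replicate block as without it, 0.264 beyond 20 kb, and −0.917 to 0.810 without 1 library. With 2 libraries per group and unknown depth, absence of a peak is not absence of access.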
